A study of Mus musculus with 6 samples.

Results

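The cytosolic ribosomal protein genes encode the proteins that, with ribosomal RNA, build the large and small ribosomal subunits. They were picked from a table of B16-F10 mouse melanoma libraries by mouse symbol alone (Rpl or Rps followed by a number with an optional paralog ending, the stalk genes Rplp0 to Rplp2, and Rpsa), which took 83 of 18324 gene rows. By symbol alone, 51 of these were assigned to the large and 32 to the small subunit. GENCODE annotates 82 as protein coding and 1, *Rps12l1*, as a processed pseudogene. The naming rule leaves out *Rps3a1*, *Fau* and *Gnb2l1* (also called *Rack1*), whose products are ribosomal components too.

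B16-F10 is a pigmented melanoma line that came from ATCC and was grown in DMEM with fetal bovine serum, and its cells differ in how much melanin they hold. Cells were sorted by the way melanin scatters light into a high-pigmented (HPC) and a low-pigmented (LPC) population, and RNA of each was sequenced from the 3′ end in 3 libraries. Both groups come from the same line and medium, with no drug or genetic change named in the labels, so they are sorted fractions of 1 line and not separate lines. One HPC and one LPC library share a suffix in their titles, which gives the pairs 1, 2 and 3 used here. The labels do not say that replicates came from separate cultures, so the p values measure the spread between these libraries, which may be technical. In bulk RNA from a sorted population, fewer cells that express a gene and less RNA per cell cannot be told apart.

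Ribosomal proteins are made in near equal amounts, and a surplus of one is degraded. In vertebrates their mRNAs begin with a C and a run of pyrimidines, the 5′ terminal oligopyrimidine (TOP) motif, through which mTORC1 and the RNA-binding protein LARP1 adjust their translation and stability together. Pigmentation is one of the traits in which their dose shows, since mice with a mutation in one of several ribosomal protein genes have dark skin or an altered coat through the tumour suppressor p53.

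The start regions of 10 members are shown: the 8 that edgeR called in pairs 1 and 3, as described further on, and the *Rps27* and *Rps27l* paralogs. Each holds 60 bases, 45 before and 15 from the annotated start, on the coding strand from RefSeq (GRCm38.p6), and capitals mark a C followed by at least 7 pyrimidines within 30 bases of the start.
*Rps6*, chr4:86857353-86857412, minus strand: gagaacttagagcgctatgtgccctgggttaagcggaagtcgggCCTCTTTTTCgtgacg
*Rps7*, chr12:28635939-28635998, minus strand: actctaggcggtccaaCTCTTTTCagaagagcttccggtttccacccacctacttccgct
*Rpl14*, chr9:120571472-120571531, plus strand: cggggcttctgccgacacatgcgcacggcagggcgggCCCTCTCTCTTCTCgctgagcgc
*Rps24*, chr14:24490633-24490692, plus strand: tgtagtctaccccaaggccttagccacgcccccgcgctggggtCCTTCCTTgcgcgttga
*Rps16*, chr7:28350644-28350703, plus strand: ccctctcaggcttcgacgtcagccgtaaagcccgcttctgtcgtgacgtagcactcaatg
*Rpl12*, chr2:32961667-32961726, plus strand: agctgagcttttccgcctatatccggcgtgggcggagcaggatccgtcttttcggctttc
*Rpl9*, chr5:65391417-65391476, minus strand: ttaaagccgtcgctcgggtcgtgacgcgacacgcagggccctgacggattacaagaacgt
*Rpsa*, chr9:120127721-120127780, plus strand: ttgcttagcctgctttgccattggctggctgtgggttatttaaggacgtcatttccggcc
*Rps27*, chr3:90213634-90213693, minus strand: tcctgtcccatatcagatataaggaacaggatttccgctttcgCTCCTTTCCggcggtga
*Rps27l*, chr9:66946041-66946100, plus strand: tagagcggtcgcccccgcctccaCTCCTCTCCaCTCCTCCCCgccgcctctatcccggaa
In *Rps6*, *Rpl14*, *Rps24* and *Rps27* the run spans the start, and in *Rps7* and *Rps27l* it lies upstream. *Rps24* and *Rps27l* each have a further annotated start that is not shown. *Rps16*, *Rpl12*, *Rpl9* and *Rpsa* have no such run in this window, so the run is in 4 of the 8 called members. Where transcription begins was not measured and can differ from the annotated start. These windows therefore do not show which of the mRNAs begin with a TOP motif.

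RefSeq windows of 300 bases (250 before to 50 after a start) were found for 62 of the 83 members, 73 windows in all, and were set beside 32851 windows of all genes. The pyrimidine run, searched on the coding strand within 30 bases of the start, was in 49.3% of the members' windows and in 18.2% of all windows. On both strands of the whole window, CCGGAAG, a core bound by ETS factors, was in 35.6% of the members' windows and 8.86% of all. AAGATGG, bound by YY1, was in 16.4% and 6.34%. GGGCGG, bound by SP1, was in 61.6% and 35.7%, and TATAAA within 50 bases of the start was in 6.85% and 4.94%. These letters overlap in part and a match is not a bound site. The median log2 fold change between HPC and LPC in all 6 libraries was -0.39 over 33 tested members with a pyrimidine run and -0.32 over 27 without one. With and without the letters it was -0.38 and -0.36 for ETS, -0.49 (10 members) and -0.33 (50 members) for YY1, -0.35 and -0.42 for SP1, and -0.37 and -0.36 for TATA. These medians are a description, with no test, and their differences run in both directions.

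Gene counts came to between 3819605 and 7311131 per library. Both libraries of pair 2 stood apart: the row RP23-81C12.3 took 53.9% of gene counts in HPC and 27.1% in LPC there, against at most 5.03% in the other 4 libraries, and mitochondrial ribosomal RNA took 12.2% and 7.69% against at most 1.99%. For that reason results are given with and without pair 2. All 7 melanocyte markers had counts in every library, down to 2 for *Tyr*, the enzyme that starts melanin synthesis, in the HPC library of pair 2. Between the groups they did not run one way: 6 of the 7 were lower in HPC in pair 2, with a median difference of -0.58 (log2 CPM), and 2 of 7 in pair 1 (median 0.16) and 0 of 7 in pair 3 (median 0.41) were. In pair 2 most of these mRNAs were thus lower in the library sorted as high-pigmented, where the median difference over all genes was -0.20. The labels rest on melanin and not on these mRNAs. Of 13 markers of immune, fibroblast, epithelial and endothelial cells, 7 had a row, and none passed 46 counts in a library. Their summed level was 9.76, 71.6 and 3.62 CPM in the HPC libraries (pairs 1, 2 and 3) and 8.59, 6.58 and 4.30 CPM in LPC. In the HPC library of pair 2 *Cd68*, *Pdgfra*, *Col1a2* and *Pecam1* stood at 26.8, 21.0, 12.2 and 11.6 CPM and *Lyz2*, *Col1a1* and *Epcam* at 0, while in the LPC library of that pair all but *Col1a1* and *Epcam* were at 0. The part of these markers in the results for pair 2 was not tested.

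Nearly all ribosomal protein genes had a lower level in high-pigmented than in low-pigmented cells, but with all 6 libraries no single member passed the test. Of 81 members with enough counts to test, 79 had a negative log2 fold change (HPC minus LPC), with a median of -0.36, and the middle 50% lay between -0.48 and -0.27. Over all 11324 genes tested, 5998 were negative and the median was -0.04, with quartiles at -0.40 and 0.32. The values ran from -0.79 for *Rpl23a* to 0.15 for *Rps27l*. None of the 81 had an adjusted p under 0.05 (edgeR quasi-likelihood test, Benjamini-Hochberg), where the background was 0% of genes called. None had an unadjusted p under 0.05 either, and 38 of all genes did. DESeq2 called 0 members and 5 genes. The members' median was -0.23 without the HPC library of pair 1 and -0.17 without the LPC library of pair 2, and -0.54 without either the HPC library of pair 2 or the LPC library of pair 1.

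**Figure D1:**
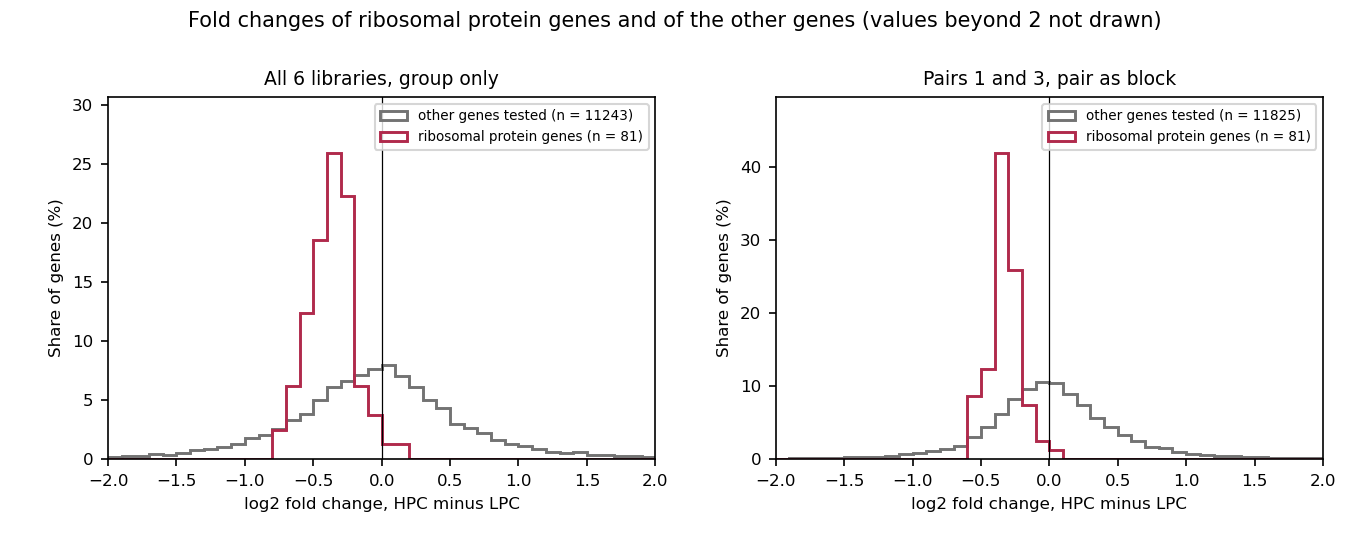
Distribution of log2 fold changes (HPC minus LPC, x axis) as a share of genes (y axis, %), for ribosomal protein genes (red) and all other tested genes (grey), with all 6 libraries (left) and with pairs 1 and 3 and the pair as a block (right). Medians of the members were -0.36 and -0.33, while the grey curves centre near 0.

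Within pairs most members shared a direction. In pair 1 the members' median difference was -0.24 (log2 CPM, HPC minus LPC) and 76 of 81 were lower in HPC, beside a median of 0.02 over all genes. Pair 2 gave -0.40 with 73 of 81 lower, beside -0.20 over all genes, so that part of the difference there is shared by the table as a whole. Pair 3 gave -0.42 with 80 of 81 lower, beside -0.00. In all, 69 of 81 members (85.2%) were lower in HPC in every pair, against a background of 17.2% of genes, and none was higher in every pair. The groups themselves overlapped for most members: all 3 HPC libraries lay below all 3 LPC libraries for 5 of 81 (6.17%), namely *Rpl27*, *Rps9*, *Rps24*, *Rpl7a* and *Rps13*, against 3.31% of genes.

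Members that were not lower in every pair are named here for that reason. *Rpl24*, *Rpl39*, *Rpl41*, *Rplp1* and *Rps4x* were higher in HPC in pair 2 alone. *Rps14* and *Rps27l* were higher in pairs 1 and 2. *Rpl13a*, *Rpl28* and *Rpl37a* were higher in pair 1 alone, by 0.01, 0.01 and 0.14 on the log2 scale, and *Rpl7l1* was higher in pair 3 alone, by 0.01.

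**Figure D2:**
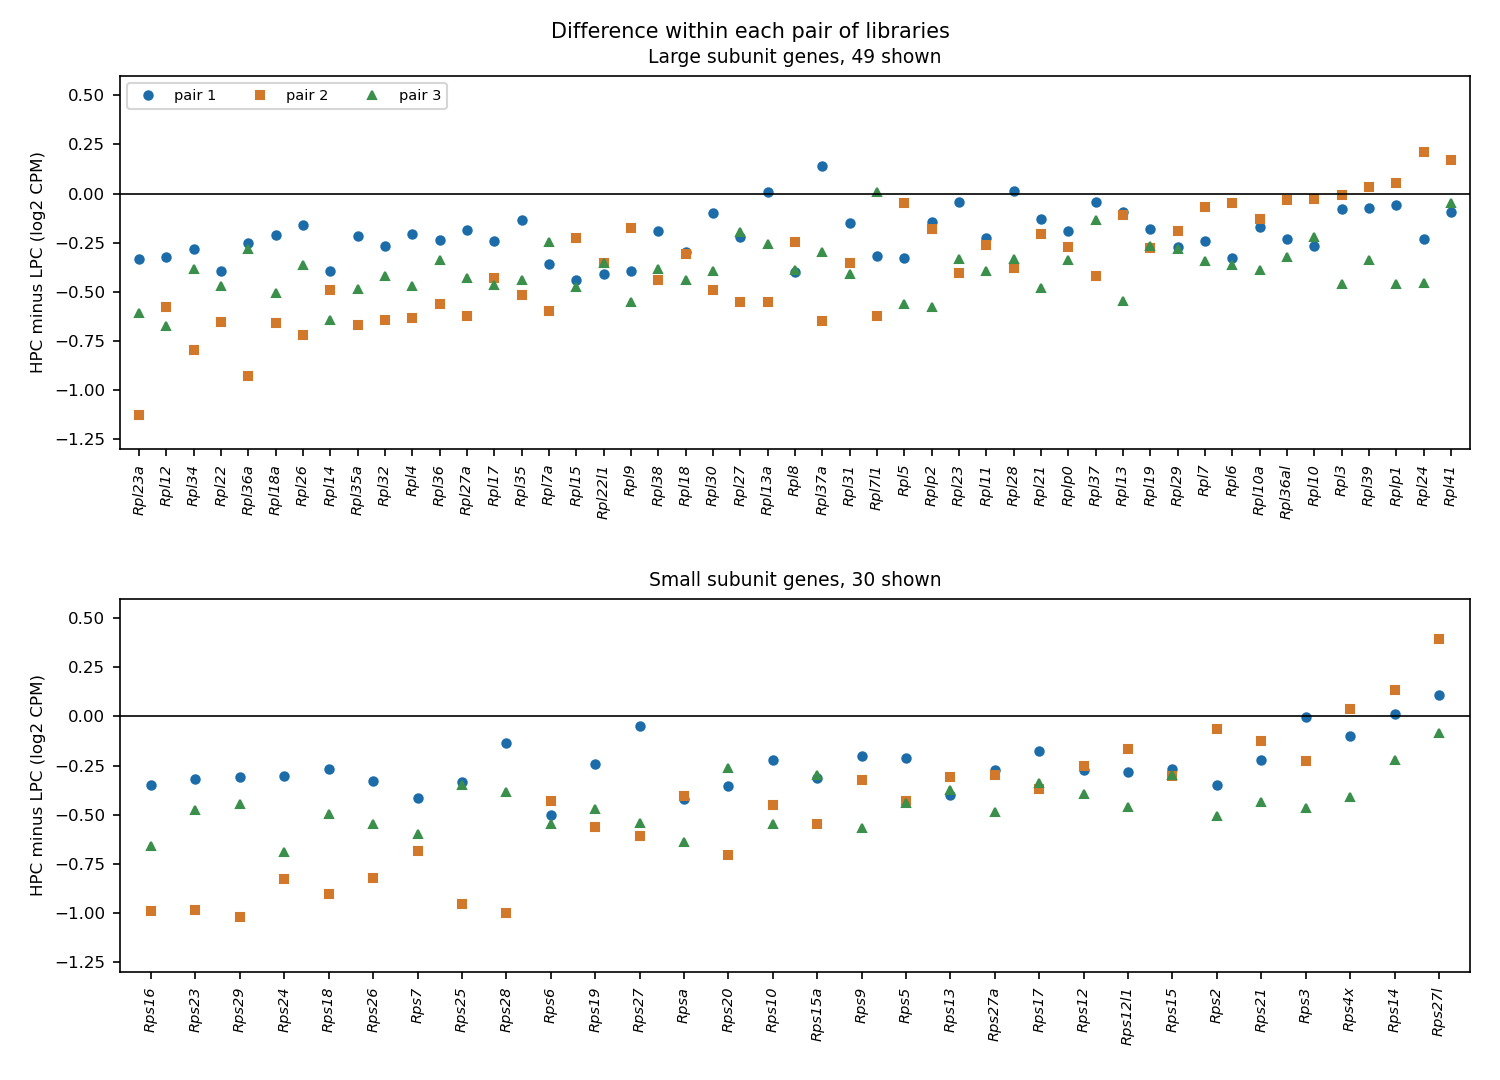
Difference HPC minus LPC (log2 CPM, y axis) within pair 1 (circles), pair 2 (squares) and pair 3 (triangles) for the tested members shown, ordered by the fold change over all libraries, with large subunit genes above and small subunit genes below. In every pair most points lie under 0 (medians over all 81 tested members -0.24, -0.40 and -0.42), and pair 2 is the most spread.

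With the pair as a block and all 6 libraries, 0 members were called by edgeR, as were 0% of genes. The biological coefficient of variation was 71.6% with groups only, 52.0% with the block and 19.5% with the block on pairs 1 and 3. In that last fit 80 of 81 members were lower in HPC, with a median of -0.33 beside 0.00 over all 11906 genes tested. 8 members fell at an adjusted p under 0.05 (9.88% of the members, against 0.370% of genes called lower) and none rose, while 1.30% of all genes were called in either direction. At an unadjusted p under 0.05, 67 of 81 members (82.7%) were lower, against 6.06% of genes. DESeq2 on the same libraries called 22 of 79 members lower (27.8%), among them all 8. Its background was 70 of 1544 genes called lower (4.53%). Only genes to which DESeq2 gave an adjusted p are counted there, a smaller set than edgeR tested. These calls rest on 4 libraries: edgeR called 0 members with pair 2 put back, and 0 on pairs 1 and 3 without the block.

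Ribosomal protein mRNAs are abundant, and abundant genes are counted more precisely. Among the 1326 other genes with a mean of at least 100 CPM, a level chosen after the data were seen, 28.1% were lower in every pair, 17.5% were lower at an unadjusted p under 0.05 in pairs 1 and 3, and 1.66% were called lower there. For the 79 members at that level the shares were 86.1%, 83.5% and 10.1%.

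The 8 members called in pairs 1 and 3 were 5 small subunit genes and 3 large subunit genes. *Rps24*, a small subunit gene that is mutated in some patients with Diamond-Blackfan anaemia, stood at 711, 721 and 648 CPM in HPC (pairs 1, 2 and 3, the order used throughout) and at 879, 1278 and 1047 CPM in LPC. The 3 HPC values lie close together and under every LPC value, with means of 694 ± 39.5 and 1068 ± 200.4 CPM (SD, n = 3). Its log2 fold change was -0.62 ± 0.35 (SE) with all libraries, where its edgeR adjusted p was 1.00, and it fell by 0.51 ± 0.12 in pairs 1 and 3 (edgeR adjusted p = 0.0390).

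*Rps16*, which sits in the head of the small subunit, was measured at 599, 835 and 698 CPM in HPC and at 764, 1655 and 1103 CPM in LPC. The HPC library of pair 2 was above the LPC library of pair 1, so the groups overlap, but HPC was lower in each pair. It fell by 0.52 ± 0.12 in pairs 1 and 3 (edgeR adjusted p = 0.0327). *Rps7*, a small subunit protein that also binds MDM2, had 564, 929 and 1098 CPM in HPC and 753, 1491 and 1664 CPM in LPC. Pair 1 was the lowest in both groups, and the fall in pairs 1 and 3 was 0.52 ± 0.12 (edgeR adjusted p = 0.0255).

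*Rpsa*, which is also known as a laminin receptor precursor and joins the small subunit late, had 542, 1598 and 612 CPM in HPC and 726, 2113 and 953 CPM in LPC. Pair 2 was far above the other pairs in both groups, and the pooled log2 fold change of -0.46 went to 0.12 without the LPC library of pair 2. That fit ignores the pairs and keeps the HPC library of pair 2. Within pairs 1, 2 and 3 *Rpsa* differed by -0.42, -0.40 and -0.64 (log2 CPM). In pairs 1 and 3 *Rpsa* fell by 0.54 ± 0.12 (edgeR adjusted p = 0.0228), the smallest adjusted p of any member. *Rps6*, the small subunit protein phosphorylated by the S6 kinases downstream of mTORC1, had 162, 286 and 169 CPM in HPC and 230, 386 and 247 CPM in LPC. It was lower in HPC by a like amount in each pair, and fell by 0.54 ± 0.14 in pairs 1 and 3 (edgeR adjusted p = 0.0477).

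Of the large subunit genes, *Rpl12*, a protein at the base of the stalk, had 459, 871 and 722 CPM in HPC and 574, 1299 and 1153 CPM in LPC, and fell by 0.51 ± 0.12 in pairs 1 and 3 (edgeR adjusted p = 0.0375). *Rpl14* had 172, 409 and 216 CPM in HPC and 226, 574 and 338 CPM in LPC, and fell by 0.53 ± 0.13 (edgeR adjusted p = 0.0467). *Rpl9* had 401, 707 and 569 CPM in HPC and 527, 797 and 834 CPM in LPC, and fell by 0.48 ± 0.12 (edgeR adjusted p = 0.0427). The groups overlap for all 3, since the HPC library of pair 2 exceeds the LPC library of pair 1. *Rpl5* did not pass in edgeR, with an adjusted p of 0.0585 and a log2 fold change of -0.45 in those pairs, but DESeq2 called it lower there.

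**Figure D3:**
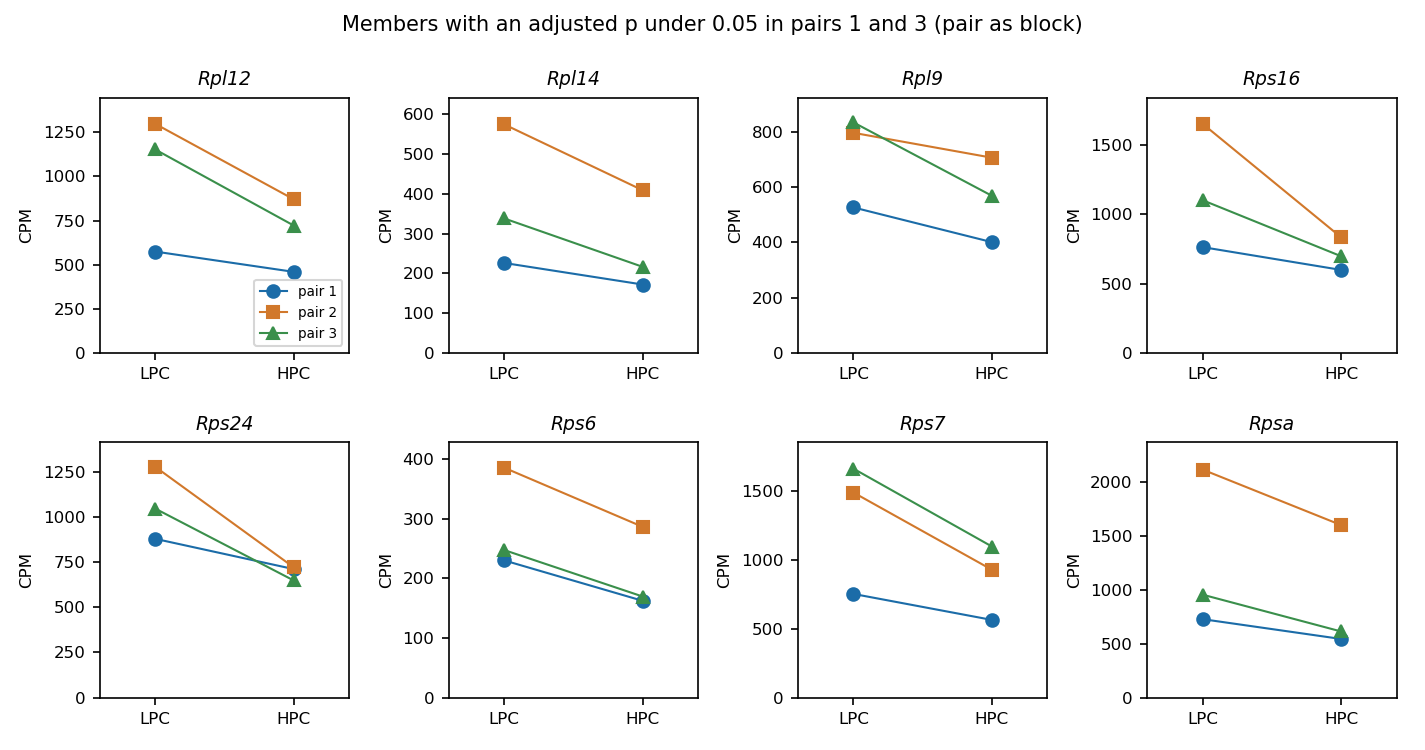
Level (CPM, y axis from 0) of the 8 members with an adjusted p under 0.05 in pairs 1 and 3, in LPC and HPC, with 1 line per pair. Every line descends from LPC to HPC, while the height of pair 2 (squares) differs from gene to gene.

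Other members with the smallest p values over all 6 libraries were *Rpl23a*, *Rps26*, *Rps25*, *Rps18*, *Rps29* and *Rps28*, none of which passed. *Rpl23a*, a protein at the rim of the exit tunnel, had the lowest fold change of the set, with 89.8, 146 and 122 CPM in HPC and 113, 318 and 185 CPM in LPC. Its LPC library of pair 2 stood well above the rest. In pair 2 the differences of *Rpl23a*, *Rps29*, *Rps28*, *Rps16*, *Rps23*, *Rps25*, *Rpl36a* and *Rps18* reached -0.90 or below, and no member went that low in pairs 1 or 3.

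Summed over all members, the level was lower in HPC in each pair. Members held 6.23%, 3.48% and 8.14% of gene counts in HPC (pairs 1, 2 and 3) and 7.27%, 7.51% and 10.9% in LPC. Counting error is small beside these differences, with a Wilson 95% interval of 6.21% to 6.25% for the first share. With RP23-81C12.3 and the mitochondrial ribosomal RNA rows taken out of the total, the shares were 6.70%, 10.3% and 8.72% against 7.66%, 11.5% and 11.5%. The summed level was 47454, 77366 and 62558 CPM in HPC and 54823, 102616 and 83607 CPM in LPC, so that HPC held 0.866, 0.754 and 0.748 of its paired LPC value. The groups overlap on each of these scales.

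The large subunit genes differed between groups slightly less than the small subunit genes. Their median log2 fold change was -0.32 with 48 of 49 lower, against -0.43 with 31 of 32 lower for the small subunit. The medians within pairs 1, 2 and 3 were -0.22, -0.38 and -0.39 for the large and -0.27, -0.43 and -0.46 for the small subunit, so the small subunit was lower by a little in each. In pairs 1 and 3, edgeR called 3 of 49 large (6.12%) and 5 of 32 small subunit genes (15.6%) lower, where 0.370% of all genes were called lower. DESeq2 called 6 of 48 large (12.5%) and 16 of 31 small subunit genes (51.6%), where it called 4.53% of its 1544 genes lower. In edgeR 38 of 49 and 29 of 32 were lower at an unadjusted p under 0.05 (77.6% and 90.6%, against 6.06% of genes). The difference between the subunits in these counts was not tested. Within a library, the ratio of large to small subunit counts needs no scaling between libraries. It was 1.31, 1.34 and 1.29 in HPC and 1.25, 1.20 and 1.25 in LPC, with means of 1.31 ± 0.0250 and 1.23 ± 0.0269 (SD, n = 3) and no overlap. It was also without overlap when counts of rows named as pseudogenes were added to their parents (1.31, 1.35 and 1.30 against 1.25, 1.23 and 1.26) and when the 4 most abundant members were left out (1.07, 1.14 and 1.05 against 1.02, 1.02 and 0.994), both chosen after the data were seen. This ratio is given as a description. The small subunit set, taken by symbol alone, is without *Rps3a1*, *Fau* and *Gnb2l1* and holds the processed pseudogene *Rps12l1*. Whether this changes the medians or the ratio was not tested.

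**Figure D4:**
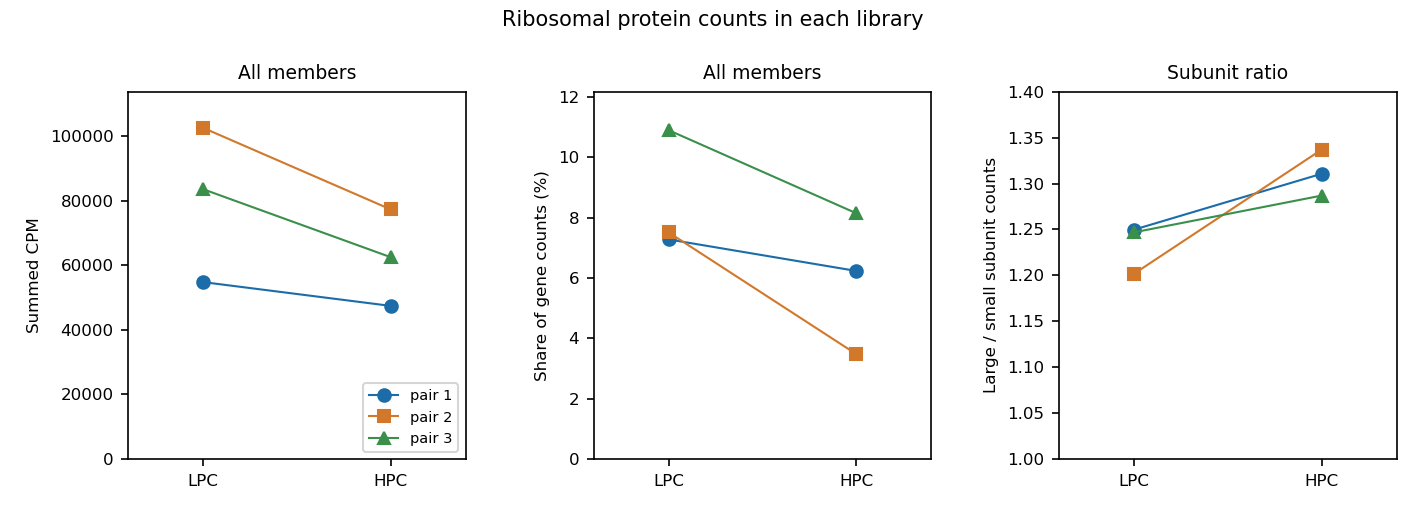
Summed level of all members (CPM, left), their share of gene counts (%, middle) and the ratio of large to small subunit counts (right; the axis starts at 1) in LPC and HPC, with 1 line per pair. Sums and shares descend from LPC to HPC in each pair, and the ratio ascends from between 1.20 and 1.25 to between 1.29 and 1.34.

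By role, the 5S particle of *Rpl5* and *Rpl11*, which can bind MDM2 outside the ribosome and so spare p53, had a median log2 fold change of -0.31 with both lower in every pair. *Rpl5* had 534, 991 and 905 CPM in HPC and 670, 1026 and 1335 CPM in LPC. *Rpl11* had 626, 1058 and 810 CPM in HPC and 731, 1266 and 1063 CPM in LPC. Neither was called in any edgeR fit, while DESeq2 called *Rpl5* but not *Rpl11* in pairs 1 and 3, and their groups overlap. The 4 proteins of the stalk, which recruits elongation factors, had a median of -0.29, with *Rplp0* at -0.27, *Rplp1* at -0.15, *Rplp2* at -0.31 and *Rpl12* at -0.56. *Rplp1* was the most abundant member, at 2652, 4323 and 3071 CPM in HPC and 2763, 4167 and 4230 CPM in LPC, and pair 2 went the other way. The 8 proteins that line or rim the exit tunnel, through which the new chain leaves, had a median of -0.41, from -0.79 for *Rpl23a* to -0.15 for *Rpl39* (0.13 without the LPC library of pair 3), and 7 of 8 were lower in every pair.

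The 5 members whose mutation darkens or changes mouse pigment, *Rps19*, *Rps20*, *Rps7*, *Rpl24* and *Rpl27a*, were all lower in HPC over the groups, with a median of -0.46. *Rps20* had 677, 895 and 914 CPM in HPC and 864, 1458 and 1096 CPM in LPC, and *Rpl27a* had 709, 973 and 719 CPM against 808, 1495 and 971 CPM. *Rps19* was higher in pair 2 than in the other pairs, at 679, 1894 and 866 CPM in HPC and 802, 2801 and 1201 CPM in LPC. Its pooled fold change of -0.48 was 0.19 without the LPC library of pair 2. That fit ignores the pairs and keeps the HPC library of pair 2. Within pairs 1, 2 and 3 *Rps19* differed by -0.24, -0.56 and -0.47 (log2 CPM). *Rpl24*, the gene of the Belly spot and tail mouse, had 295, 623 and 309 CPM in HPC and 346, 538 and 424 CPM in LPC, so HPC was the higher library in pair 2. Its pooled value of -0.09 was 0.09 without the HPC library of pair 1, 0.06 without the HPC library of pair 3 and 0.08 without the LPC library of pair 2. *Rps7* was the only one of the 5 called in pairs 1 and 3, by edgeR and by DESeq2. This is 20% of the 5, beside 9.88% of all members in edgeR and 27.8% in DESeq2. Of genes, 0.370% and 4.53% were called lower. All 5 were lower at an unadjusted edgeR p under 0.05 there, as were 82.7% of all members and 6.06% of genes. The 18 listed genes mutated in Diamond-Blackfan anaemia, a failure of red cell production, were all lower in every pair, as were 69 of the 81 members, with a median of -0.46, and edgeR called *Rps24* and *Rps7* lower in pairs 1 and 3. That is 2 of 18 (11.1%), beside 9.88% of all members. DESeq2 called 6 of 18 (33.3%), adding *Rps10*, *Rps26*, *Rps29* and *Rpl5*, beside 27.8% of all members.

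Levels within the set were far apart. The 3′-end counts do not scale with transcript length, so CPM can be set side by side between genes, as far as the end of each transcript is annotated alike. The 4 highest mean levels were 3534 CPM for *Rplp1*, 2893 CPM for *Rpl23*, 2795 CPM for *Rplp2* and 2240 CPM for *Rps14*. The lowest tested members were *Rps12l1* at 80.0 CPM, *Rpl7l1* at 81.1 CPM, *Rpl23a* at 162 CPM and *Rpl22l1* at 220.4 CPM. *Rpl10l* had 2 counts in 1 library and *Rpl39l* had 19 and 3 counts in the HPC and LPC libraries of pair 2 and 0 elsewhere, so neither was tested.

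As a share of the members' own counts, a few genes stood apart in pair 2 in both groups. *Rpl31* and *Rpl11* were the steadiest, with a highest share 1.10 and 1.11 times the lowest over the 6 libraries. *Rps4x* made up 1.42%, 0.786% and 1.65% of members' counts in HPC and 1.31%, 0.578% and 1.64% in LPC. *Rpl36* ran the other way, at 0.786%, 1.74% and 0.868% in HPC and 0.802%, 1.93% and 0.821% in LPC. In pair 2 the share was 0.454 of that in the other pairs for *Rps4x* and 0.448 for *Rpl18*, but 2.24 times for *Rpl36*, 2.18 times for *Rpl17*, 1.81 times for *Rps19* and 1.80 times for *Rpsa*. Whether the composition of pair 2 bears on these shares was not tested.

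Some paralogs can stand in for a parent protein in some tissues or states, which was not tested for the pairs here. *Rps27l*, a paralog of *Rps27* and a p53 target, had the highest fold change of the set, at 265, 278 and 212 CPM in HPC and 246, 211 and 224 CPM in LPC, and the groups overlap. *Rps27* itself had 302, 626 and 417 CPM in HPC and 313, 955 and 607 CPM in LPC. For every 100 counts of *Rps27* there were 87.8, 44.3 and 50.7 of *Rps27l* in HPC and 78.5, 22.1 and 37.0 in LPC. The log2 ratio was higher in HPC in 3 of 3 pairs, by 0.16, 1.00 and 0.46, yet the groups did not differ beyond their spread (mean difference 0.54, exact 2-sided permutation p = 0.4, adjusted p = 0.8 over 4 paralog pairs). With the pair as a block the exact sign permutation gave p = 0.25, the smallest that 3 pairs allow, and 3 against 3 libraries cannot go below 0.1. The difference was 0.11 without the LPC library of pair 2 and 1.03 without the LPC library of pair 1, with 0.24 without the HPC library of pair 1.

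*Rpl22l1*, known to rise when *Rpl22* is lost, had 217, 204 and 155 CPM in HPC and 288, 260 and 198 CPM in LPC. *Rpl22* had 294, 441 and 370 CPM in HPC and 386, 694 and 513 CPM in LPC. Both were lower in HPC in each pair, and the ratio of 73.8, 46.2 and 42.0 per 100 counts in HPC stood beside the 74.6, 37.5 and 38.7 in LPC. The log2 ratio differed by 0.14 (exact permutation p = 0.6, adjusted p = 0.8), and by -0.11, -0.04 and -0.01 without the HPC library of pair 1, the LPC library of pair 2 and the LPC library of pair 3. *Rpl36al* against *Rpl36a* differed by 0.29 (exact permutation p = 0.4, adjusted p = 0.8), with 0.02, 0.90 and -0.04 in pairs 1, 2 and 3. *Rpl7l1* against *Rpl7* differed by -0.09 (exact permutation p = 0.8, adjusted p = 0.8), with -0.08, -0.55 and 0.35 in the pairs and 0.03, 0.04 and 0.01 without the HPC library of pair 2, the LPC library of pair 1 and the LPC library of pair 2. These tests of 3 against 3 libraries do not show that the ratios are alike.

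**Figure D5:**
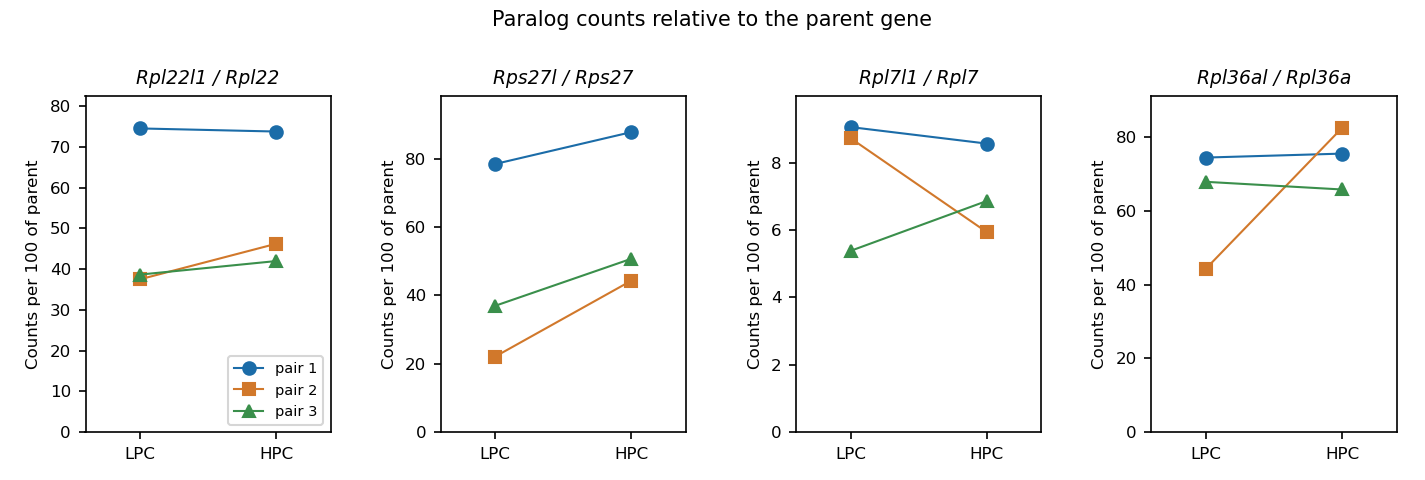
Counts of 4 paralogs per 100 counts of the parent gene (y axis from 0) in LPC and HPC, with 1 line per pair. The *Rps27l* lines all ascend, from 78.5, 22.1 and 37.0 in LPC to 87.8, 44.3 and 50.7 in HPC, while the lines of the other paralogs run both ways.

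Many members share sequence with other annotated genes, processed pseudogenes among them. In the last 300 bases of the transcript, 67 of 83 members shared at least 100 bases at 95% identity with another annotated gene, and 63 shared them with another row of the table, up to 40 rows for *Rpl21*. The table holds 176 rows named as pseudogenes of 51 members, with 10.6% as many counts as the members. The row *Rpl10-ps3* alone had 18314 counts over the 6 libraries against 21444 for *Rpl10*. All rows together came to 119% of the own counts of *Rpl10*, 108% of *Rps6*, 89.4% of *Rpl19* and 76.9% of *Rpl10a*. The rows *Rps12-ps11* to *Rps12-ps18*, 8 in all, had between 163 and 203 counts in the HPC library of pair 1 and between 498 and 550 in the LPC library of pair 3. Of 127 such rows tested, 116 were lower in HPC, with a median log2 fold change of -0.39. How reads that fit several copies were assigned is not given in the sources used here, so the level of a member with many copies is uncertain. With those rows added to their parents, an alternative chosen after the data were seen, the same 8 members were called in pairs 1 and 3.

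The other genes of the pathway were taken from lists of TOP mRNAs, mTORC1 and LARP1, assembly factors, rRNA synthesis, the p53 arm and the mitochondrial ribosome. Of 19 tested non-members with a TOP mRNA, 16 were lower in HPC, with a median of -0.21. In pairs 1 and 3 DESeq2 called 6 of 18 lower (33.3%, against 4.53% of genes). There edgeR called 3 of the 19 lower (15.8%, against 0.370% of genes). These were the nucleolar chaperone *Npm1*, by 0.51 (edgeR adjusted p = 0.0252), the histone chaperone *Nap1l1*, by 0.55 (edgeR adjusted p = 0.0413), and the splicing regulator *Hnrnpa1*, by 0.87 (edgeR adjusted p = 0.00424). *Rps3a1*, a ribosomal protein gene outside the naming rule, had a fold change of -0.47 and was lower in every pair. The ubiquitin-like fusion *Fau*, which also yields a ribosomal protein, had -0.05. Of 13 genes listed for mTORC1 and LARP1, 4 were lower and 9 higher, the median was 0.21 and none was called. The list holds subunits, inhibitors and targets of mTORC1 together, so its median is not a measure of mTORC1 activity. Some of them, such as *Mtor* and *Rptor*, had 0 counts in a library of pair 2. In every pair 2 of the 13 were lower and 5 higher, where 17.2% of all genes were lower and 1463 of 11324 higher. *Larp1* itself had 159, 145 and 165 CPM in HPC and 200, 239 and 191 CPM in LPC. It did not pass (log2 fold change -0.43, edgeR adjusted p = 1.00). Its HPC libraries lay below all LPC libraries, as for 3.31% of genes. In the opposite direction 1 other gene of the list had no overlap, as had 275 of 11324 genes. That gene had at most 51 counts in a library.

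Of 10 tested genes of rRNA synthesis and early processing, 6 were lower with a median of -0.44, and *Ncl*, nucleolin, fell by 0.64 (edgeR adjusted p = 0.00403) and *Nop58*, a box C/D particle protein, by 0.66 (edgeR adjusted p = 0.0375) in pairs 1 and 3. These 2 are 20% of the 10, against 0.370% of genes called lower there by edgeR. *Ncl* had 1043, 992 and 925 CPM in HPC and 1606, 3241 and 1437 CPM in LPC. It was among 3 of the 10 whose HPC libraries all lay below all LPC libraries, as for 3.31% of genes. Of 16 tested chaperones and assembly factors of ribosomal proteins, 13 were lower with a median of -0.22 and none was called. Of 4 genes that link the 5S particle to p53, 1 (*Mdm4*) was lower and 3 higher, with a median of 0.53. Within pairs 1, 2 and 3 the median was 0.61, 0.81 and -0.01. In the fit of pairs 1 and 3 the median was 0.28, and 1 other gene, *Trp53*, was the lower of the 4. There edgeR called 1 of the 4, against 1.30% of genes. This was *Cdkn1a*, a cell cycle inhibitor and p53 target, which rose by 0.80 (edgeR adjusted p = 0.00171). It had 401, 414 and 301 CPM in HPC and 211, 140 and 186 CPM in LPC. The mitochondrial ribosomal protein genes, which belong to the other ribosome of the cell, had a median of -0.04 with 43 of 71 lower. That median is close to that of all genes. In every pair 8 of the 71 were lower, where 17.2% of all genes were. In pairs 1 and 3 edgeR called 1 of the 71 lower (1.41%, against 0.370% of genes).

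The order of members by the size of their difference was only loosely shared between pairs. Across the 81 members, Spearman's rho was 0.26 between pairs 1 and 2, 0.32 between pairs 1 and 3 and 0.20 between pairs 2 and 3, against 0.03, 0.20 and 0.07 across all genes. Genes are not independent replicates, and all members in a library share its scaling, so these values are a description.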

How the data were processed

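Libraries were made from total RNA with Lexogen's QuantSeq forward kit and sequenced on a NextSeq instrument, per the labels' protocols. The deposited table gives raw read counts for each gene and library, which the authors counted with HTSeq, as the table's name and tally rows show. Alignment used STAR and GRCm38, per the submitters' processing notes. Which annotation, strand setting and counting mode were used, how reads that fit several genes were handled, and all versions are not given in the sources used here. Reads near the 3′ end make counts depend on how that end is annotated, and members with copies elsewhere can gain or lose reads. Molecular identifiers are not mentioned, so intervals cover counting error only.

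Tally rows entered neither library sizes nor tests: reads on no feature made up between 12.4% and 29.5% of tallied reads, the highest shares in pair 2, and ambiguous reads between 0.487% and 2.51%. Genes were tested on the whole table with edgeR 4.0.16 in R 4.3.3 (filterByExpr with a minimum count of 10, TMM, robust glmQLFit and glmQLFTest, group only) with Benjamini-Hochberg adjustment. Fits were also run on simulated counts. These had no pair effects and less spread than the fits of all 6 libraries, so they do not show how well the fits do on these data. CPM were computed on TMM-scaled library sizes. Differences within a pair were taken on log2 CPM, to which a prior count of 2 had been added. Paralog ratios use log2(CPM + 0.5) and exact 2-sided permutation tests over libraries. Alternatives were the replicate block, leaving out pair 2 or each library, DESeq2 1.42.0 and its size factors, no filter, leaving out 3 abundant non-mRNA rows, and a pseudocount of 2 or raw counts for paralogs. Positions and shared 3′ ends (BLAST 2.17.0) come from GENCODE vM21 on GRCm38.

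The pairs come from a suffix in the titles, whose meaning is not stated in the labels. The deviations of same-suffix libraries from the means of their groups were correlated across genes (0.466, 0.316 and 0.422, each above the minimum of 0.1), so they were treated as pairs. Every pair of libraries differed by more than sampling noise (chi-square at least 13.5 per degree of freedom), and each counted as 1 replicate.

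Genes named were the 8 members with the smallest p over all libraries at 10 CPM or more, the 10 with the smallest adjusted p in pairs 1 and 3, the 4 highest and 4 lowest tested members, members higher in HPC in all pairs (none), the paralog pairs, the pigment, 5S and stalk lists, and of each list of non-members those with the smallest p. Members named for other features were singled out after their values were seen. The members and lists were chosen with earlier results of these data known. Single values of some genes are not reported here.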

Additional observations from a re-analysis of the deposited data

How the results depend on the processing

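With all 6 libraries and groups only, edgeR called 0 genes and 0 members, and the replicate block alone changed neither count. With the replicate block and pair 2 left out it called 155 genes and 8 members, and DESeq2 in that setting called 136 and 22. DESeq2 with groups only called 5 genes. With pseudogene rows added to their parents, an alternative chosen after seeing the data, the replicate block with pair 2 left out gave 133 genes and 8 members. The members' median log2 fold change lay between -0.54 and -0.17 when 1 library was left out at a time, and between 62 and 80 members were lower in HPC.

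Leaving out 1 library gave a log2 paralog ratio between -0.11 and 0.46 for *Rpl22l1* and between -0.33 and 0.041 for *Rpl7l1*. The log2 fold change then ran from -0.28 to 0.18 for *Rps14*, from -0.52 to 0.059 for *Rpl3*, from -0.52 to 0.085 for *Rpl24*, from -1.12 to 0.12 for *Rpsa*, from -1.04 to 0.19 for *Rps19*, from -0.31 to 0.13 for *Rpl39* and from -0.49 to 0.24 for *Rps4x*. Fits that left out 1 library used groups only, so they kept the unmatched partner of that library. *Rps14* was at 0.00089 with DESeq2 size factors in edgeR, and *Rps27l* at -0.00016 with pseudogene rows added, the replicate block and pair 2 left out. The cause of these changes was not tested. Of 624 values for 39 named members, 580 kept their direction and side of the threshold, 30 passed it and 14 changed sign. Depth limits *Rpl10l* and *Rpl39l*, which were too low to test, while members' shares of counts are limited by the spread between libraries.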
